A study of Mus musculus with 3 samples.

Results

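Among tumor-infiltrating cells sorted for adoptively transferred CD8+ T cells, 117 of 30857 kept cells carried at least 10 UMIs summed over 8 genes of myeloid cells. A UMI marks 1 captured RNA molecule. The 8 genes were Lyz2, Il1b, Cxcl2, Csf1r, H2-Aa, C1qa, Ccl6 and Wfdc17, and the cells were selected on these counts, so levels of these genes are given as a description with no test. Kept cells had 500 to 120000 UMIs and at most 20% of UMIs from mitochondrial genes. The selected cells are called myeloid-marked cells here and were split by whether a UMI of Cd3e, a chain of the T cell receptor complex, was present. Of the 117 cells, 91 were Cd3e+ and 26 were Cd3e-. The remaining 30740 cells are called the other kept cells.

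Myeloid genes outside the selection were present in most Cd3e- and most Cd3e+ cells, but not in all of either. The label of myeloid cells was checked with 7 myeloid genes outside the selection that had under 1 CPM (UMIs of the gene scaled to a fixed total of UMIs) in the other kept cells, namely Spi1, Cybb, Aif1, Csf2rb, Clec7a, Cd33 and Sirpa, a panel chosen after its values were seen. At least 3 panel UMIs were present in 21 of the 26 Cd3e- cells and in 57 of the 91 Cd3e+ cells. No panel UMI was present in 3 Cd3e- and 20 Cd3e+ cells. In the other kept cells 1.01% had any panel UMI, a low share that follows from how the panel was chosen.

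The study treated irradiated female C57BL/6 mice (Thy1.2+) bearing tumors of B16F10, a mouse melanoma line, with pmel T cells, which are Thy1.1+ CD8+ cells with a transgenic T cell receptor against a melanocyte protein. Before transfer the cells were preconditioned with sIL-2 (super IL-2, a form that binds IL-2Rβ more tightly), with the IL-2/21-Trikine, a fusion that engages the receptors of both cytokines, or with sIL-2 + IL-21, and the first 2 groups of mice were then given that cytokine while mice of the last group were given only sIL-2. All tumors were collected at day 18 from tumor injection, and live Thy1.1+CD8+ single cells were sorted and run with 10x Genomics 3′ chemistry as 1 library per treatment. All donor cells were TCR transgenic, and the age of the mice at harvest and how many were pooled per library were not given in the sources used here. Values listed by library are ordered as sIL-2 first, IL-2/21-Trikine second and lastly sIL-2 + IL-21. With 1 library per treatment there was no replicate check and no test between treatments, and the 95% intervals below, exact binomial for shares and exact Poisson for levels, cover counting error only.

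Myeloid cells of tumors include neutrophils, monocytes, macrophages and dendritic cells. Neutrophils store S100a8 and S100a9 and, when activated, release IL-1β and the CXC chemokines Cxcl1, Cxcl2 and Cxcl3, which draw more neutrophils through the receptor Cxcr2. Macrophages make complement C1q and lysosomal proteases, and macrophages, dendritic cells and B cells present peptides to CD4+ T cells on MHC class II molecules such as the products of H2-Aa and H2-Eb1. CD8 and Thy1, the proteins of the gate, are T cell surface proteins that most myeloid cells lack, although some dendritic cells carry CD8α.

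Cxcl2 and H2-Aa were the gene of the 8 with the most UMIs in more cells of their class than any other gene, Cxcl2 in 10 of 26 Cd3e- cells and H2-Aa in 30 of 91 Cd3e+ cells, so the regions before their start sites are shown with those of their nearest relatives. The sequences are from RefSeq on GRCm38.p6 and run 5′ to 3′ on the strand of the gene over the 120 bases before the start. Capitals mark the longest run of letters that the relatives share in the 250 bases before the start, GGGAATTTCCC for the chemokines and CTGATTGG for the class II genes. The first has the form of a site for the NF-κB family, and the second holds the inverse of the CCAAT box.
Cxcl1: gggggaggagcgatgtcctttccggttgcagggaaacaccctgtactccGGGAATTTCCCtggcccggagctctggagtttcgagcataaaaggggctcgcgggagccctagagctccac
Cxcl2: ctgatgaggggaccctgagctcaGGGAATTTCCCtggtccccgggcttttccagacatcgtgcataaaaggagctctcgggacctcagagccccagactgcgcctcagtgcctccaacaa
Cxcl3: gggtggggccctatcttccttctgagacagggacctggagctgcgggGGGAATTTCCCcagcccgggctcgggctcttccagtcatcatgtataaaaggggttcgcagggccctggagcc
H2-Aa: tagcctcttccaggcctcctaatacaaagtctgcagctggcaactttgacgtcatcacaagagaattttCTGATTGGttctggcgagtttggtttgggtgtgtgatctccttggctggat
H2-Eb1: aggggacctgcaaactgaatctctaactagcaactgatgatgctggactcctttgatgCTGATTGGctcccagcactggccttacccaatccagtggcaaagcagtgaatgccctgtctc

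These windows lie on the forward strand at chr5:90891125-90891244 for Cxcl1, chr5:90903779-90903898 for Cxcl2, chr5:90785981-90786100 for Cxcl3 and chr17:34305747-34305866 for H2-Eb1, and on the reverse strand at chr17:34287824-34287943 for H2-Aa. The shared run began 71 bases before the start of Cxcl1, 97 before Cxcl2, 73 before Cxcl3, 51 before H2-Aa and 62 before H2-Eb1. On either strand, the chemokine run was found in 0.0426% and the class II run in 3.83% of the 32851 windows of 250 bases before a start in the table. A match is a description of letters and not a site in these cells. Cxcl3 UMIs were present in 9 Cd3e- cells, 8 of which also had Cxcl2 UMIs. H2-Eb1, H2-Ab1 and Cd74, the invariant chain of class II molecules, were all detected in each of the 40 Cd3e+ cells with at least 10 H2-Aa UMIs and in each of the 4 such Cd3e- cells.

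Myeloid-marked cells were rare in all 3 libraries. The library of sIL-2 held 31 among its 7760 kept cells (0.399%, interval 0.272% to 0.567%), that of IL-2/21-Trikine 64 among 13299 (0.481%, 0.371% to 0.614%), and that of sIL-2 + IL-21 22 among 9798 (0.225%, 0.141% to 0.340%). The first interval overlapped both others, which did not overlap each other. These intervals cover counting error only, so with 1 library per treatment they cannot tell a treatment from a library. Cd3e- cells numbered 7 (0.0902%), 14 (0.105%) and 5 (0.0510%) by library, and these 3 intervals overlapped. The share of myeloid-marked cells with a Cd3e UMI was 77.4%, 78.1% and 77.3% by library, against 97.0%, 90.1% and 96.3% of the other kept cells. All myeloid-marked cells together held 0.687% of the UMIs of kept cells. No barcode of a myeloid-marked cell was found in more than 1 library, while 178 kept cells carried one of 89 barcodes found in several libraries.

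**Figure D1:**
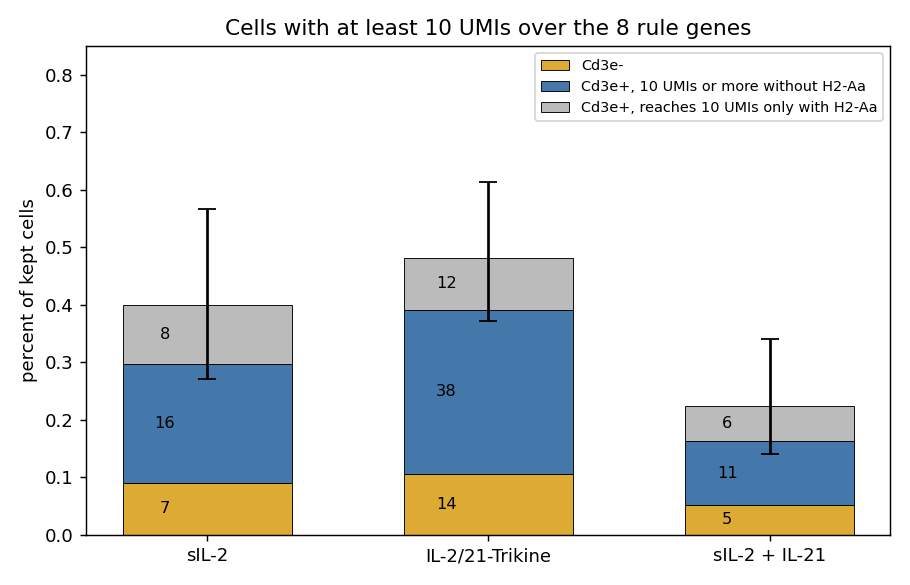
Percent of kept cells (y axis) with at least 10 UMIs over the 8 genes in each library (x axis), with bars split into Cd3e- cells, Cd3e+ cells that reach 10 UMIs without H2-Aa and Cd3e+ cells that need H2-Aa. Numbers in the bars are cells, and the error bars are exact 95% binomial intervals of the total, which is 0.399%, 0.481% and 0.225% by library.

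The selection lay in a thin tail. Of all kept cells, 29071 had no UMI of the 8 genes and 87 had 5 to 9. Just outside the threshold, 20 cells had 8 or 9 UMIs, of which 19 were Cd3e+, 13 had H2-Aa as the only one of the 8 genes and 17 had no panel UMI. Just inside it, 7 cells had 10 to 12 UMIs, all Cd3e+, of which 2 had H2-Aa alone and 4 had no panel UMI. Above it, 94 cells had at least 20 UMIs, 73 of them with at least 3 panel UMIs.

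Csf1r, the receptor for the macrophage growth factor CSF1, contributed little to the selection. It had 5 UMIs in 4 Cd3e- cells and 52 UMIs in 29 Cd3e+ cells, and never more than 4 in a cell. C1qa likewise was the gene with the most UMIs in no cell. Leaving out H2-Aa removed 27 cells from the selection, 26 of them Cd3e+, whereas leaving out any other gene removed between 0 and 13.

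The Cd3e- cells were shallow and the Cd3e+ cells deep. The median was 2514.5 UMIs and 918 genes in Cd3e- cells, 26882 UMIs and 5063 genes in Cd3e+ cells, and 11982 UMIs and 3134 genes in the other kept cells. Cd3e+ cells thus had 10.7 times the median of Cd3e- cells and 2.24 times that of the other kept cells. The order held in each library, with 2110, 2217.5 and 2786 UMIs in Cd3e- cells against 18173, 29329 and 27795 in Cd3e+ cells. The median mitochondrial share was 0.341% in Cd3e- cells, 1.32% in Cd3e+ cells and 1.33% in the other kept cells. Because cells of different depth are not comparable in detected genes, every cell of at least 2000 UMIs was thinned to 2000 UMIs. Then 57 of 91 Cd3e+ cells (62.6%) kept a Cd3e UMI, as did 72.5% of 3000 randomly drawn other kept cells, and 17 of the 26 Cd3e- cells were deep enough to be thinned, with 9 left out. The median of UMIs over 14 T cell genes was 1 in thinned Cd3e- cells, 27 in thinned Cd3e+ cells and 35 in the drawn cells, but the Cd3e- cells had been chosen for no Cd3e UMI, one of the 14 genes, at their own low depth. Whether shallow depth hid Cd3e in some of them was not tested.

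**Figure D2:**
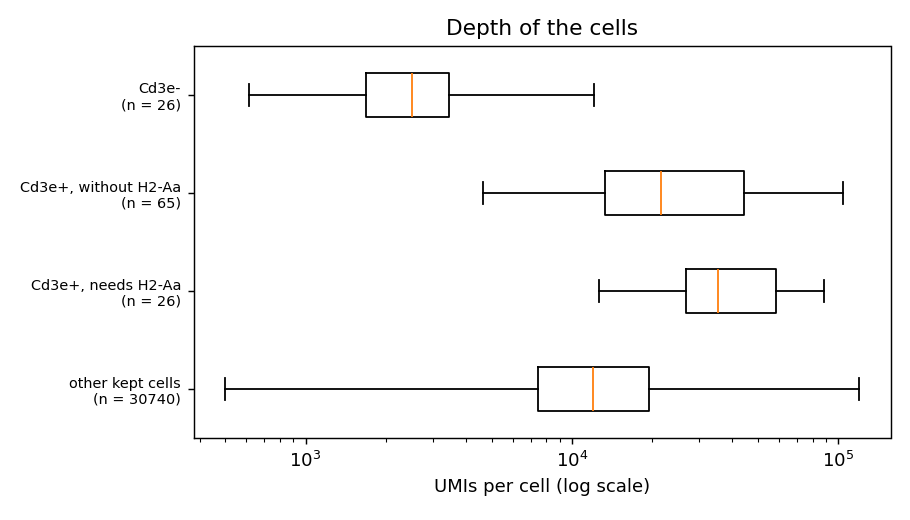
UMIs per cell (x axis, log scale) in Cd3e- cells, in Cd3e+ cells that reach 10 UMIs without H2-Aa or only with it, and in the other kept cells. Boxes give the quartiles and the median and whiskers the lowest and highest cell; medians run from 2514.5 in Cd3e- cells to 35361 in Cd3e+ cells that need H2-Aa.

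In UMIs not thinned to equal depth, most Cd3e+ cells lay apart from all Cd3e- cells in T cell transcripts. The classes differed in depth and were split by Cd3e, one of the 14 genes summed. Thinned to 2000 UMIs, Cd3e- cells had 0 to 4 and Cd3e+ cells 0 to 59 of these UMIs. All Cd3e- cells had between 0 and 5 UMIs over the 14 T cell genes. Of the Cd3e+ cells, 85 had at least 49 such UMIs, and 6 had only 2 to 18. Of these 6 cells, 4 came from the sIL-2 library and had 1 Cd3e UMI each beside 147 to 779 UMIs of the 8 selection genes. One of those had 208 Il1b, 149 Lyz2 and 135 panel UMIs among 21248 UMIs. The other 2 of the 6, from the sIL-2 and the IL-2/21-Trikine library in turn, were rich in melanoma transcripts. They had 363 and 738 UMIs over Pmel, Dct, Mlana and Tyrp1, all genes of melanin synthesis or melanosomes. Both had H2-Aa as the only one of the 8 genes, with 23 and 365 UMIs, and mitochondrial shares of 6.98% and 9.39%. No other myeloid-marked cell had more than 3 UMIs of those melanoma genes.

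**Figure D3:**
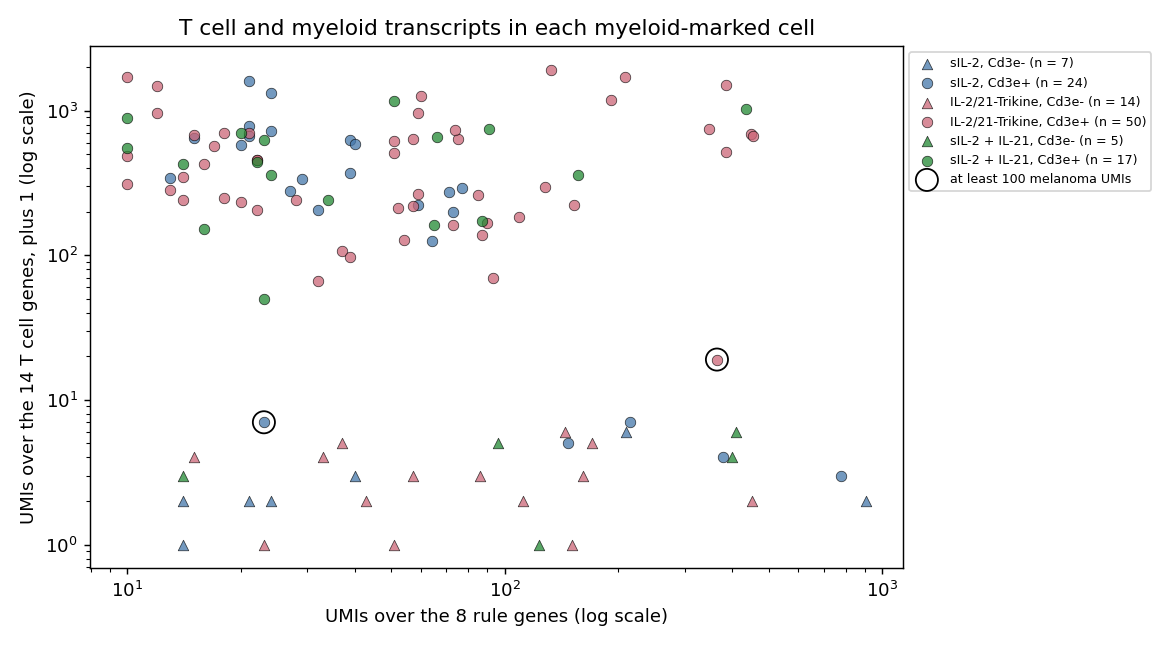
UMIs over the 8 selection genes (x axis, log scale) and over 14 T cell genes plus 1 (y axis, log scale) for each of the 117 myeloid-marked cells, colored by library, with triangles for Cd3e- and circles for Cd3e+ cells. Cd3e- cells lie at 0 to 5 T cell UMIs and 85 Cd3e+ cells at 49 or more, with 6 Cd3e+ cells between, 2 of them ringed for at least 100 melanoma UMIs.

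Across all genes, Cd3e- cells were compared with the other kept cells as CPM of summed UMIs, with 5 CPM added to each side of a ratio, for genes with at least 50 CPM in either class. Of 3965 such genes, 1035 (26.1%) were at least 2-fold higher and 1204 (30.4%) at least 2-fold lower in Cd3e- cells, with a median log2 ratio of -0.22. With mitochondrial and ribosomal protein genes left out of the total, 4485 genes reached the minimum, of which 898 were at least 2-fold higher and 1780 lower, and their median log2 ratio was -0.63. In Cd3e- cells 50 CPM is only 4.48 UMIs, so a low gene can pass 2-fold by counting error alone, and a gene that is near 0 in the other kept cells reaches the minimum only if it is high in Cd3e- cells. Groups of genes are therefore described by their levels and by how many members were detected, and are counted only over members with at least 50 CPM in the other kept cells, which could move either way. Of all 2966 such genes, 239 (8.06%) were at least 2-fold higher and 1204 (40.6%) at least 2-fold lower in Cd3e- cells, with a median log2 ratio of -0.68. Counts of higher and lower group members in Cd3e- cells below are to be read beside these shares. A gene is called detected with at least 1 UMI over the class, and no share over all genes stands beside those counts.

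The 15 genes with the highest ratio of Cd3e- over other kept cells included 6 of the 8 selection genes, whose rank follows from the selection, and 9 others. Cxcl2 had 22356 CPM in Cd3e- cells, 471 CPM in Cd3e+ cells and 0.232 CPM in the other kept cells. S100a9 (10118 CPM in Cd3e- cells), S100a8 (9627), Il1b (7697) and Retnlg (5221), which encodes a secreted resistin-like protein, followed, and then Ccl6 (4351), Cxcl3 (3046), Wfdc17 (2979), Lyz2 (2320) and G0s2 (2108). Clec7a, the receptor Dectin-1 for fungal glucans, had 1975 CPM, its relative Clec4d 1841 CPM, the IL-1 receptor antagonist Il1rn 1562 CPM and Acod1, which makes itaconate, 1729 CPM. H2-Aa, with 2555 CPM, completed the 15 highest. The other kept cells had under 3 CPM of every one of these 15 genes.

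A few cells carried many of these sums. Of the Retnlg UMIs in Cd3e- cells, 95.3% came from 1 cell of the sIL-2 + IL-21 library, and the cell highest in S100a8 held 63.4% of its UMIs. Of H2-Aa UMIs, 62.0% came from 1 of 4 cells. Without the sIL-2 + IL-21 library S100a8 fell from 9627 to 3109 CPM, Retnlg from 5221 to 274 CPM and G0s2, 47.1% of it in 1 cell, from 2108 to 849 CPM. Without the IL-2/21-Trikine library S100a8 was at 18091 CPM, S100a9 at 16807 CPM, Retnlg at 10570 CPM, G0s2 at 4288 CPM, Cxcl3 at 4930 CPM, Acod1 at 2752 CPM and H2-Aa at 527 CPM, and without the sIL-2 library Cxcl3 was at 1804 CPM. The other 8 of the 15 genes moved by at most 1.5 times without any 1 library. By contrast Clec4d and Il1rn were each detected in 20 of 26 cells with at most 17.1% of UMIs in any of them, and Tyrobp and Fcer1g, adaptor proteins of activating myeloid receptors, in 26 of 26.

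Markers of neutrophils were abundant in the Cd3e- cells. The 14 neutrophil markers summed to 29195 CPM in Cd3e- cells, 199 CPM in Cd3e+ cells and 1.71 CPM in the other kept cells. By library the sums in Cd3e- cells were 25154, 6279 and 99230 CPM. All 14 were detected in Cd3e- cells, but 2 cells held 1922 of the 2617 UMIs, and the median cell had 4.5. The sum was 8957 CPM without these 2 cells, 13256 CPM without the sIL-2 + IL-21 library and 53380 CPM without that of IL-2/21-Trikine. The less abundant markers included the gelatinases and collagenases Mmp9 (55.8 CPM, 4 cells) and Mmp8 (123 CPM, 4 cells), the G-CSF receptor Csf3r (66.9 CPM, 5 cells), Cxcr2 (123 CPM, 2 cells) and Ly6g (89.2 CPM, 3 cells), the last of which was at 0 in Cd3e+ cells. Cxcr2, Camp and Ngp had no UMI without the sIL-2 + IL-21 library, and without that of IL-2/21-Trikine Mmp8 was at 45.9 CPM, Ly6g at 138 CPM and Cxcr2 at 252 CPM. Camp and Ngp, made in immature neutrophils of the bone marrow, were detected in 1 cell each, Camp at 11.2 CPM, which is 1 UMI.

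The 26 Cd3e- cells differed among themselves, as described here by sets with thresholds chosen after the values were seen. At least 10 UMIs of S100a8 and S100a9 were present in 10 cells (38.5%, interval 20.2% to 59.4%), 4, 3 and 3 by library, and 4 more cells had 1 to 9. At least 10 UMIs of H2-Aa, H2-Ab1 and H2-Eb1 were present in 4 cells (15.4%), 1, 2 and 1 by library, and 1 more had fewer. At least 3 UMIs of C1qa, C1qb and C1qc were present in 6 cells (23.1%), 1, 4 and 1 by library. No cell was in both the S100 and the class II sets, or in both the S100 and the C1q sets, and 2 cells were in both the class II and C1q sets. At least 10 Cxcl2 UMIs were present in 12 cells, of which 6 were also in the S100 set, 6 in neither the S100 nor the class II set, and 0 in the class II set. Only 2 cells met none of these thresholds.

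**Figure D4:**
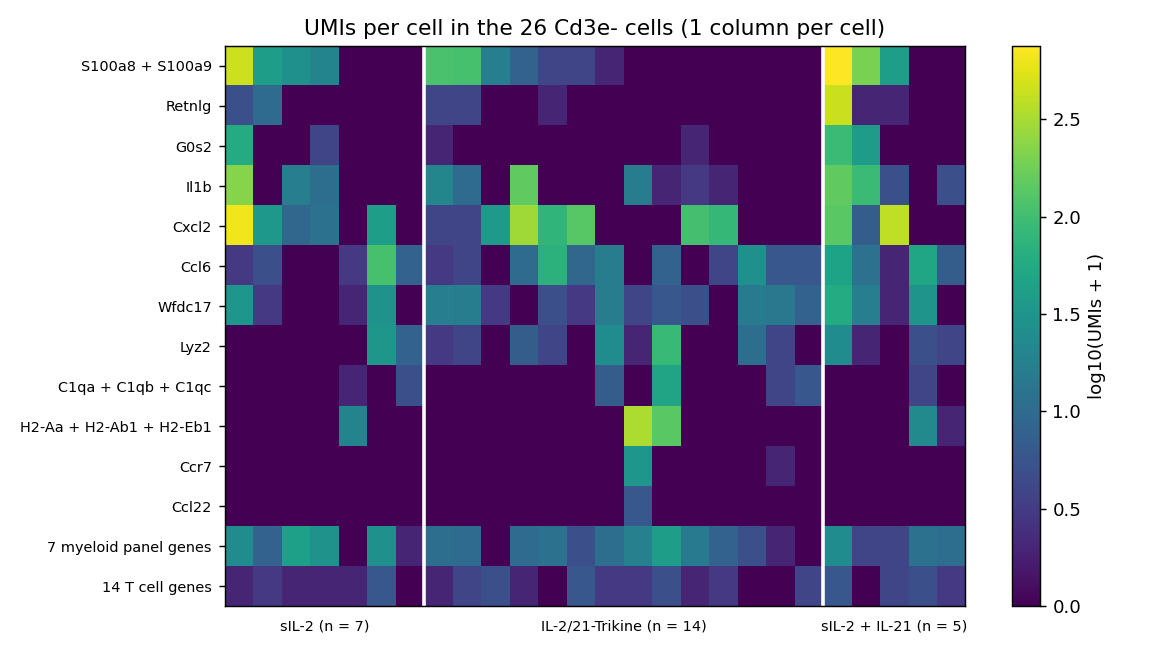
UMIs of genes or summed genes (rows, color as log10 of UMIs plus 1) in each of the 26 Cd3e- cells (columns), grouped by library. The 10 cells with at least 10 S100a8 and S100a9 UMIs hold no cell of the class II or C1q sets, and the 14 T cell genes in the last row do not pass 5 UMIs in any cell.

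Of the 13 inflammatory cytokine genes listed beside the selection gene Il1b, 10 were detected in Cd3e- cells. These 13 summed to 4585 CPM in Cd3e- cells and 207 CPM in the other kept cells, and the only one with at least 50 CPM in the latter, Tgfb1, did not pass 2-fold. Il1b was at 9224 CPM (3 cells), 4258 CPM (7 cells) and 14743 CPM (4 cells) by library, against at most 0.212 CPM in the other kept cells of a library. Il1a reached 1071 CPM in 5 cells, the inflammasome sensor Nlrp3 703 CPM in 11 cells and Tnf 446 CPM in 7 cells. Of the Il1a UMIs 64.6% came from 1 cell, and Il1a was at 543 CPM without the sIL-2 library. Without that of IL-2/21-Trikine Nlrp3 was at 1101 and Tnf at 803 CPM, and Tnf was at 274 CPM without the sIL-2 + IL-21 library. Il6 had 11.2 CPM, which is 1 UMI, while Il10, Il12b and Il27, cytokines of regulatory or antigen-presenting cells, were at 0, which allows up to 33.5 CPM at 3 UMIs over the class. Tgfb1 had 89.2 CPM in Cd3e- cells, 144 CPM in Cd3e+ cells and 133 CPM in the other kept cells.

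Without the selection genes Cxcl2 and Ccl6, 7 CXC chemokines summed to 4607 CPM in Cd3e- cells and 44.4 CPM in the other kept cells, and 10 CC chemokines to 14190 and 4536 CPM. Of 3 CC chemokines with at least 50 CPM in the other kept cells, 2 were at least 2-fold higher in Cd3e- cells and 1 lower. Ccl5, a chemokine of effector CD8+ T cells, was the lower one, at 89.2 CPM in Cd3e- cells and 1297 CPM in the other kept cells. Ccl3 and Ccl4, which both T cells and myeloid cells make, were at 5589 and 6415 CPM in Cd3e- cells and at 959 and 2253 CPM in the other kept cells. The monocyte attractants Ccl2 (658 CPM), Ccl7 (457 CPM) and Ccl8 (569 CPM) were each under 1 CPM in the other kept cells. Without the sIL-2 library Ccl7, of which 1 cell held 90.2%, was at 47.9 CPM and Ccl3 at 2937 CPM, and without that of IL-2/21-Trikine Ccl7 was at 871, Ccl8 at 206 and Cxcl9 at 68.8 CPM. Cxcl10, an attractant of effector T cells induced by interferon, was at 1104 CPM in 6 cells, and Cxcl9 at 201 CPM in 3 cells.

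Genes of macrophages were detected as well. The 12 macrophage markers, which include the selection genes C1qa and Csf1r, summed to 2689 CPM in Cd3e- cells, 318 CPM in Cd3e+ cells and 8.30 CPM in the other kept cells, led by Cd68 in both classes of myeloid-marked cells. The 10 outside the selection were all detected in Cd3e- cells and summed to 2465 CPM there. The sums in Cd3e- cells were 3630, 2781 and 903 CPM by library. Mrc1, the mannose receptor of alternatively activated macrophages, came from 1 Cd3e- cell of the sIL-2 library. All 11 lysosomal genes were detected in Cd3e- cells. Of these, 5 of the 5 with at least 50 CPM in the other kept cells were at least 2-fold higher, against 8.06% of all such genes. Among the lysosomal genes were the proteases Ctsb (2477 CPM, 21 cells) and Ctss (2800 CPM, 15 cells) and the saposin precursor Psap (2900 CPM, 19 cells). The 8 class II genes, H2-Aa of the selection included, summed to 1222, 15056 and 2287 CPM by library in Cd3e- cells, and the 7 others to 5968 CPM in all against 75.2 CPM in the other kept cells. All 15 Fc and phagocytic receptor genes were detected, including Clec4e (1439 CPM), Fcgr3 (614 CPM) and Fcgr4 (223 CPM). Of these 15, Axl and Marco were at 11.2 CPM each, which is 1 UMI and cannot be told from 0. Of 3 tumor myeloid effector genes with at least 50 CPM in the other kept cells, 2 were at least 2-fold higher, namely Fabp5, a fatty acid carrier, at 4998 CPM and osteopontin Spp1 at 2834 CPM. Others of the list were the heme-degrading enzyme Hmox1 at 614 CPM in 18 cells and the prostaglandin synthase Ptgs2 at 346 CPM in 9 cells. Spp1 was also at 534 CPM in the other kept cells. Without the sIL-2 library Hmox1 was at 335, Ptgs2 at 128, Fcgr4 at 144 and Mrc1 at 0 CPM. Without that of IL-2/21-Trikine Clec4e was at 2362, Ptgs2 at 573, Fcgr4 at 344 and Mrc1 at 619 CPM. The class II genes H2-Ab1, H2-Eb1 and Cd74 fell from 1216, 1963 and 2198 to 138, 321 and 527 CPM without it.

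Of ligands seen by T cells, Cd274, which encodes PD-L1, was at 1484 CPM in 15 Cd3e- cells, 163 CPM in Cd3e+ cells and 71.6 CPM in the other kept cells. By library it was at 2556, 1065 and 903 CPM in Cd3e- cells, and at 243, 153 and 105 CPM in Cd3e+ cells. The costimulatory ligands Cd80 (268 CPM) and Cd86 (201 CPM) were at 49.8 and 11.9 CPM in the other kept cells. Of 3 such ligands with at least 50 CPM in the other kept cells, 1 was at least 2-fold higher and 0 lower. All 12 interferon-stimulated genes were detected, and of 2 with at least 50 CPM in the other kept cells 1 was higher, the ubiquitin-like Isg15, at 2086 CPM against 98.8 CPM in the other kept cells. The myeloid transcription factors Spi1 (390 CPM, 15 cells) and Cebpb (2499 CPM, 23 cells) were at 0.0736 and 54.2 CPM in the other kept cells, while Irf8, which T cells also use, was at 212 and 230 CPM. Without the IL-2/21-Trikine library Cebpb was at 3783 and Irf8 at 138 CPM, and without the sIL-2 + IL-21 library Cd80 was at 164 CPM.

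The receptor chains of the study's cytokines were lower in Cd3e- than in the other kept cells. Il2ra and Il21r had 1 UMI each over the 26 cells (11.2 CPM) and Il2rb 2 UMIs (22.3 CPM), against 326, 130 and 403 CPM in the other kept cells. Il2rg, the common γ chain, was at 134 CPM in 8 cells (69.2 to 234 CPM), which is 37.8% of its level in the other kept cells. Receptors for myeloid growth factors showed the opposite order, with Csf2rb at 268 CPM in 13 cells and Csf2ra at 112 CPM in 5 cells, against 0.0498 and 1.20 CPM in the other kept cells.

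T cell genes were low in Cd3e- cells. The 14 T cell genes summed to 591 CPM in Cd3e- cells, 14972 CPM in Cd3e+ cells and 17430 CPM in the other kept cells. All 14 were at least 2-fold lower in Cd3e- than in the other kept cells, Cd3e by its choice, with a median log2 ratio of -4.21. Of all 2966 genes with at least 50 CPM in the latter, 40.6% were this much lower, with a median of -0.68. The sums in Cd3e- cells were 407, 608 and 842 CPM by library. Relative to the other kept cells, Trbc2 was at 3.01% (interval 2.01% to 4.32%), Cd3g at 5.56% (2.24% to 11.5%), Trac at 5.58% (1.52% to 14.3%) and Gzmb, which encodes granzyme B, at 3.16% (1.58% to 5.65%). Thy1, Lck and Lat, with 1 or 2 UMIs each, were at 8.81%, 11.8% and 11.9%, with intervals that reached from 0.224% to 49.1%. The intervals overlapped, so no difference between these genes was detectable at this depth. Without the sIL-2 library Cd3g was at 47.9 in place of 78.1 CPM, and without that of IL-2/21-Trikine Trac was at 22.9 in place of 44.6 CPM. Of the genes of the gate, Cd8a had no UMI, and Cd8b1 and Thy1 had 1 UMI each. Nkg7, a protein of cytotoxic granules, was at 0.927% of its level in the other kept cells, and Ifng, Themis, Inpp4b, Skap1, Satb1 and Bach2 had no UMI, against 408 to 707 CPM in the other kept cells.

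**Figure D5:**
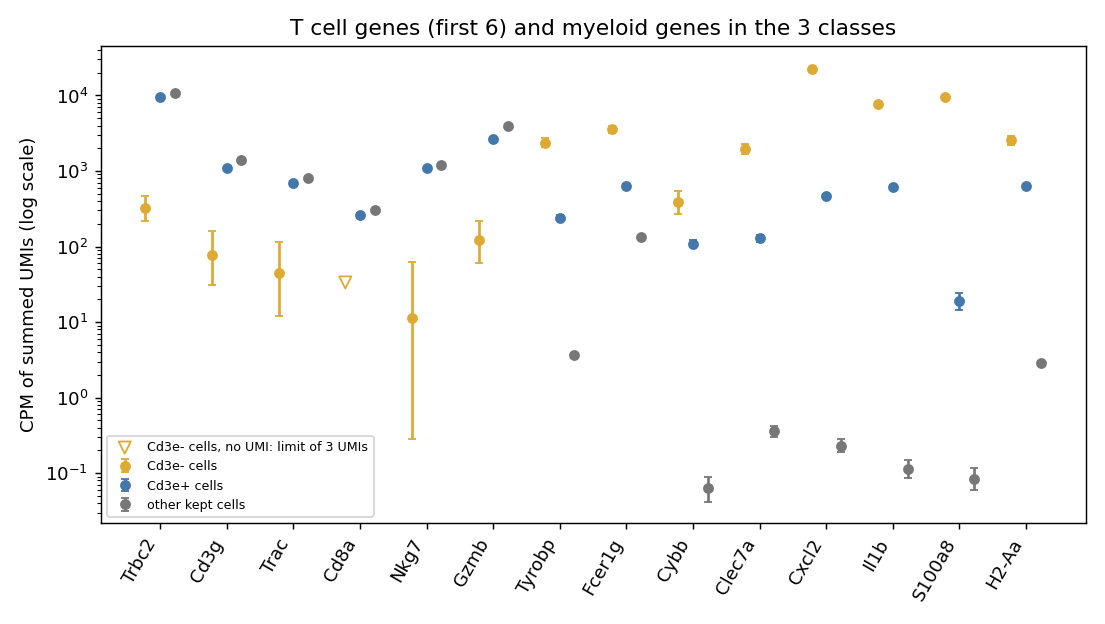
CPM of summed UMIs (y axis, log scale) of 6 T cell genes and 8 myeloid genes (x axis) in Cd3e- cells, Cd3e+ cells and other kept cells, with exact 95% Poisson intervals and an open triangle at the limit of 3 UMIs over the class (33.5 CPM) where no UMI was seen in Cd3e- cells. T cell genes of Cd3e+ cells lie near those of the other kept cells, while their myeloid genes lie between the other classes.

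Summed over the class, T cell genes of Cd3e+ cells stood near the level of the other kept cells. Myeloid genes such as Tyrobp stood above it. Over 3243 genes with at least 50 CPM in either class, 106 (3.27%) were at least 2-fold higher in Cd3e+ than in the other kept cells. At least 2-fold lower were 3 (0.0925%), and the median log2 ratio was 0.01. A gene near 0 in the other kept cells reached the minimum only if high in Cd3e+ cells, so these counts cannot be compared. Of the selection genes, 6 reached the minimum and all 6 were higher, which follows from the selection. None of the 14 T cell genes passed 2-fold, nor did most of the 3243 genes. The cells were chosen for a UMI of Cd3e, one of the 14. Trbc2 was at 87.6%, Cd3g at 78.8%, Cd8a at 86.6% and Nkg7 at 91.1% of its level in the other kept cells. Of the 8 cytotoxic genes with at least 50 CPM, 1 was lower, the granzyme Gzmf, at 245 CPM against 714 CPM, with Prf1, perforin, at 105 CPM against 181 CPM. The IL-2/21-Trikine library gave more of the UMIs of Cd3e+ cells than of the other kept cells, and within libraries Gzmf was at 228 against 638 CPM, 109 against 229 CPM and 689 against 1249 CPM, which is past 2-fold in 2 of the 3. The cytotoxic list summed to 6612 against 12469 CPM, 6536 against 7261 CPM and 15446 against 18015 CPM by library. Cell cycle genes summed to 1389 CPM in Cd3e+ and 1355 CPM in the other kept cells, and to 123 CPM in Cd3e- cells. Tyrobp was at 242 CPM in 65 Cd3e+ cells, against 3.72 CPM in the other kept cells, Cybb, the catalytic subunit of the phagocyte oxidase, at 110 CPM in 45 cells, and Ctss at 472 CPM in 84 cells.

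Set against Cd3e- cells over 3977 genes, Cd3e+ cells had 1207 (30.3%) at least 2-fold higher and 951 (23.9%) at least 2-fold lower, with a median log2 ratio of 0.23. The 10 genes with the highest ratio were Ifng, Themis, Cd3e, Inpp4b, Skap1, Pclaf, Satb1, Bach2, Nkg7 and Gramd3. Of these, 9 had no UMI in Cd3e- cells, which for Cd3e follows from the split. The 10 with the lowest ratio were led by Retnlg (2.58 CPM in Cd3e+ cells), S100a8 (59 UMIs in 5 cells), S100a9 (44.5 CPM), Asprv1 (0.967 CPM) and Il1a (6.45 CPM). Cxcl3, Stfa2l1, Ifitm6, Cstdc4 and the selection gene Cxcl2 followed. S100a8 and S100a9 UMIs reached 10 in 2 of the 85 Cd3e+ cells with at least 20 T cell UMIs (2.35%, interval 0.286% to 8.24%). Over all 91 Cd3e+ cells the number was 4 (4.40%), against 10 of 26 Cd3e- cells, although the Cd3e+ cells were deeper. Both counts of Cd3e+ cells include those that entered through H2-Aa. Class II UMIs at the same threshold were present in 42 of the 85 and in 4 of the 26 cells, from which nothing is read, because H2-Aa is a selection gene that brought in 26 of the Cd3e+ cells and 1 Cd3e- cell. The Il1b threshold of 10 UMIs was met by 33 of the 85 cells and the Cxcl2 threshold by 14.

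Of the 91 Cd3e+ cells, 65 reached 10 UMIs without H2-Aa and 26 needed it, a split made after the values were seen. The 65 cells (16, 38 and 11 by library) had at least 3 panel UMIs in 50 cells and none in 4. Their median depth was 21573 UMIs, and Il1b (940 CPM, 44 cells), Lyz2 (571 CPM, 53 cells) and Ccl6 (568 CPM, 57 cells), all selection genes, were found in most of them. Of the 26 cells, 16 had no panel UMI. Without the 2 melanoma-rich cells, the remaining 24 had 16 with H2-Aa as the only one of the 8 genes, H2-Aa at 638 CPM, Cd74 at 674 CPM and Tyrobp UMIs in 5 cells, and their 14 T cell genes summed to 16501 CPM. Of these 24 cells, 8 had a panel UMI and 5 at least 3, so the panel gave a myeloid label to few of them. H2-Aa was also present at 1 to 9 UMIs in 766 of the other kept cells, 2.88 CPM in all.

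H2-Aa in Cd3e+ cells was at 321 CPM (14 cells), 770 CPM (34 cells) and 509 CPM (10 cells) by library. The other kept cells showed the same order at far lower levels, with 1.25, 4.55 and 2.50 CPM. Without the 2 melanoma-rich cells it was at 305, 590 and 509 CPM in Cd3e+ cells. The cells were selected on this gene, so these levels are a description. In Cd3e- cells Cxcl2 was at 27450 CPM (5 cells), 15795 CPM (8 cells) and 32254 CPM (3 cells) by library, but the ratio of the second library over the first, 0.575, became 2.36 when the cell with the most Cxcl2 UMIs was left out of each library. Lyz2 in Cd3e- cells was at 1445, 2976 and 1926 CPM and Fcer1g at 4408, 3150 and 3310 CPM by library. Of the 24 genes named as highest or lowest between libraries in Cd3e- cells, 18 had at least 50% of their UMIs in 1 cell, among them Mrc1, Ccr7, Retnlg, Lgmn and Ccl7, so these lists describe cells and not treatments.

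Markers of other cell types were looked for in the same cells. Mast cell and basophil markers were at 0 in Cd3e- cells for 8 of 8 genes. In Cd3e+ cells they summed to 79.6 CPM, and 1 cell of the IL-2/21-Trikine library held 181 UMIs of the basophil proteases Mcpt8 and Prss34 beside 263 T cell UMIs. Markers of dendritic cells were at 0 for 6 of 13 genes in Cd3e- cells. One Cd3e- cell of the IL-2/21-Trikine library had 142 H2-Aa, 31 Ccr7, 5 Ccl22 and 3 Ccl17 UMIs, but no Fscn1 UMI. These 5 transcripts are known from mature dendritic cells. In 1 Cd3e+ cell of that library there were 80 Ccl17, 36 Ccl22, 19 Fscn1 and 28 Ccr7 UMIs beside 737 T cell UMIs. Ccr7 was also at 335 CPM in the other kept cells, so it does not mark a dendritic cell by itself. Among monocyte markers, the endotoxin co-receptor Cd14 was at 1249 CPM in 11 Cd3e- cells and 1.14 CPM in the other kept cells, and Ly6i at 491 CPM in 7 cells and 0.210 CPM, whereas Plac8, Ly6c2 and Ccr2 were at 1642, 453 and 181 CPM in the other kept cells and at 1015, 201 and 123 CPM in Cd3e- cells. This order depended on the split by Cd3e. A wider set held the 30 myeloid-marked cells with under 20 T cell UMIs, without the melanoma-rich cells. In it Plac8, Ly6c2 and Ccr2 were at 2045, 730 and 210 CPM, above the other kept cells. Vcan, Chil3 and Fn1, markers of classical monocytes, had no UMI in Cd3e- cells. In the 30 cells they were at 130 CPM (2 cells), 93.9 CPM (1 cell) and 86.7 CPM (2 cells). Without the IL-2/21-Trikine library Cd14 was at 1995, Ly6c2 at 115 and Ccr2 at 0 CPM in Cd3e- cells, and without that of sIL-2 Ly6i was at 287 CPM. Natural killer cell markers were at 0 in Cd3e- cells for 5 of 7 genes, with 123 CPM of Klrk1 that became 45.9 CPM without the IL-2/21-Trikine library. B cell markers other than Ighm (2 UMIs) and erythroid markers were at 0 in Cd3e- cells, and of the platelet markers only Pf4, which macrophages also express, was seen (324 CPM, 5 cells). Of its UMIs 51.7% came from 1 cell, and it was at 47.9 CPM without the sIL-2 library and at 596 CPM without that of IL-2/21-Trikine. The melanoma list summed to 1060 CPM in Cd3e- cells, 959 CPM of it from Gpnmb, which is also a macrophage gene, with Pmel, Mlana, Tyr and Slc45a2 at 0. In Cd3e+ cells it summed to 513 CPM, led by Dct, and to 37.7 CPM in the 65 that reached 10 UMIs without H2-Aa. Pecam1 and Sparc were the stromal and endothelial markers detected in Cd3e- cells.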

How the data were processed

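The 3 single-cell RNA-seq libraries of sorted Thy1.1+CD8+ tumor-infiltrating cells were used, 1 per treatment. The values the authors deposited are UMI counts, whole and not normalized, for each gene in each cell. Per the labels and methods they come from Cell Ranger 9.0.0 with intronic reads included. The methods name a GRCm39 reference and the submitters' processing notes name mm10, so no position of a measured feature was printed. The stated limits kept 30857 of 31026 deposited cells, with 130200802, 166772854 and 168041089 UMIs in the libraries of sIL-2, then IL-2/21-Trikine, then sIL-2 + IL-21. Doublets were not removed.

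UMIs were summed over cells of a class and scaled to CPM. Ratios used 5 CPM on each side. Named genes were the 8 selection genes, the genes of 30 lists, the 15 highest ratios of Cd3e- over other kept cells, the 10 highest and 10 lowest of Cd3e+ over Cd3e- cells (100 CPM in either), and the 5 highest and 5 lowest per pair of libraries in Cd3e- cells (200 CPM in either), without receptor segments. One list gene was not in the matrices, and one is not reported here. The cells and the lists were chosen with earlier results of these data known. Alternatives changed the threshold, the genes and limits of the selection, the Cd3e rule, the weight of cells, cells left out, the total, the added CPM, the minimum and the libraries included. The steps were tested on simulated data. Calculations used Python with numpy, scipy, pandas and matplotlib, and promoter sequences came from a RefSeq table on GRCm38.p6.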

Additional observations from a re-analysis of the deposited data

How the results depend on the processing

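Values by library are ordered as in the report. A threshold of 5 UMIs raised the share of myeloid-marked cells to 0.631%, 0.782% and 0.521% by library, and requiring 3 of the 8 genes lowered it to 0.271% in the sIL-2 library. IL-2/21-Trikine had the highest and the third library the lowest share under the 8 planned and 1 added settings of the selection. The share of myeloid-marked cells with a Cd3e UMI, 77.8%, became 85.8% at 5 UMIs, 64.5% where the 10 UMIs were set relative to depth, 95.7% for a UMI of any of 6 T cell receptor complex genes and 52.8% after thinning to 2000 UMIs. It lay between 77.4% and 77.9% without each library in turn and was 72.6% for at least 20 UMIs of T cell genes, an alternative chosen after seeing the data. Genes at least 2-fold higher in Cd3e- than in the other kept cells numbered 2208 and lower ones 3905 with no CPM minimum, and lower ones 633 at 100 CPM, where fewer genes are tested. The 14 T cell genes were at least 2-fold lower under all 12 settings of that comparison. In the setting with under 20 T cell UMIs, cells were chosen on these same genes, so its outcome was fixed. The summed T cell genes of Cd3e- cells were 820 CPM as a mean of cells and 0 where any T cell receptor complex UMI set a cell aside, because the 5 cells left had no UMI of the list. The Cxcl2 ratio in Cd3e- cells of the IL-2/21-Trikine over the sIL-2 library turned from 0.575 to 1.04 as a mean of cells and to 2.36 without the top cell of each library, and the cause was not tested. Over the third library, the Cxcl2 ratios became 0.580 and 0.997 (from 0.490) for IL-2/21-Trikine, and 0.558 and 0.423 (from 0.851) in the case of sIL-2, under the same changes. Without the top cells, the ratios of H2-Aa, a selection gene, in Cd3e+ cells over that library became 1.75 (from 1.51) and 0.803 (from 0.631). The sums given without the melanoma-rich cells, the top neutrophil cells or a library were chosen after seeing the data. No paired analysis was possible because each treatment had 1 library and no test was made.

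With 89640 UMIs over all Cd3e- cells, 1 UMI was 11.2 CPM, and by library 37.0, 21.7 and 60.2 CPM, so genes under about 3 UMIs could not be told from 0.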

Other observations

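A further cell with 294 UMIs of the 8 genes, from the sIL-2 library, was outside the selection because it had 122031 UMIs, with 1524 UMIs of T cell genes. Xist, the X chromosome silencing RNA of female cells, was detected in each class. It was at 636 CPM in 10 Cd3e- cells and 960 CPM in 87 Cd3e+ cells. Of the 6 sex-linked genes listed, Eif2s3y, Kdm5d and Uty had no UMI in either class. Ddx3y, also a gene of the Y chromosome, and Tsix had UMIs in Cd3e+ but not in Cd3e- cells. The list thus had 5 genes at 0 in Cd3e- cells and 3 in Cd3e+ cells, where it summed to 968 CPM. Entpd1, which encodes CD39, was at 614 CPM in 14 Cd3e- cells and 29.0 CPM in the other kept cells. It was at 963 CPM without the IL-2/21-Trikine library and at 342 CPM without that of sIL-2 + IL-21. Ccr7 UMIs in Cd3e- cells came to 96.9% from 1 cell.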
